A study of Mus musculus with 3 samples.

Results

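The cytosolic ribosomal proteins are the protein components of the ribosomes that translate nuclear-encoded messages. Their messages were taken as the probe sets whose array annotation gave a single gene symbol of the form Rpl or Rps, digits and at most one of the letters a, l, x or y, together with Rpsa, Rplp0, Rplp2 and Fau. Rplp1, which the rule also names, had no such probe set. The rule found 101 probe sets of 47 genes among 45037 probe sets, of which 34945 carried a single symbol and stood for 18193 genes. These were 24 genes of the large subunit and 23 of the small subunit. A further 110 probe sets named a ribosomal protein gene together with other genes and lay outside the rule. Rps27a, Rpl5, Rpl23 and Rpl10 had no probe set with a single symbol and are not described.

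RNA came from 4T1 cells, an established mouse mammary carcinoma line, and was hybridised to Affymetrix Mouse Genome 430 2.0 arrays. One array held 4T1 cells in regular medium, for which no time was given. The second held 4T1 cells kept for 1 week in medium conditioned by mesenchymal stem cells (MSCs). The third held 4T1 cells kept in contact with MSCs for 1 week and then isolated. Where the MSCs came from and how the tumour cells were separated from them was not given in the sources used here. With 1 array in each condition there was no replicate error, no difference could be tested, and every value below is a description of 3 arrays. A signal is the MAS5 intensity as deposited, on a linear scale without a unit, and every difference is a log2 ratio of signals.

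A ribosome is built from a small 40S subunit, which reads the messenger RNA, and a large 60S subunit, which forms the peptide bonds. The ribosomal protein genes lie scattered over the genome, and their messages typically start with a run of pyrimidines, the 5′ terminal oligopyrimidine (TOP) motif. Through this run the mTORC1 kinase and the RNA-binding protein Larp1 control whether TOP messages are translated or stored, a step that a measurement of RNA level does not read.

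Transcript starts are shown because the TOP run is the regulatory sequence that members of this family are known to share. RefSeq windows around the annotated start (GRCm38.p6) were found for 41 of the 47 genes, 49 windows in all. Each stretch below is written 5′ to 3′ and holds 20 bases before the annotated start and 15 from the start on. Capitals mark an unbroken run of C and T that begins with C at the annotated start and is at least 5 bases long. Rpl7a and Rpl11 are shown as members without such a run at that position.
Fau, chr19:6057927-6057961, plus strand: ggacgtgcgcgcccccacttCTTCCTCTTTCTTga
Rpl14, chr9:120571497-120571531, plus strand: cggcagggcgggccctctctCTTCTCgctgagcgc
Rpl35, chr2:39005117-39005151, minus strand: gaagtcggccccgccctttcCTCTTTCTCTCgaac
Rpl38, chr11:114668560-114668594, plus strand: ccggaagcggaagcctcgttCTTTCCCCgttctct
Rplp2, chr7:141447631-141447665, plus strand: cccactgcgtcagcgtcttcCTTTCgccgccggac
Rps10, chr17:27635230-27635264, minus strand: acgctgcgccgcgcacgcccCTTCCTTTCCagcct
Rps18, chr17:33955651-33955685, minus strand: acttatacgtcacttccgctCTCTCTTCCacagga
Rps27, chr3:90213634-90213668, minus strand: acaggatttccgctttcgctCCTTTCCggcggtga
Rps6, chr4:86857353-86857387, minus strand: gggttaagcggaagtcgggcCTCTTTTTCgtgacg
Rpl7a, chr2:26910787-26910821, plus strand: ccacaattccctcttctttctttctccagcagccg
Rpl11, chr4:136053379-136053413, minus strand: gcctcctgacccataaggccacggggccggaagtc

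The longest of these runs was the 13 bases of Fau, and the shortest was the 5 bases of Rplp2. A C followed by 4 bases of C or T at the annotated start was present in 9 of the 49 windows (18.4%), against 2.5% of all 32851 windows. Some genes have several windows, and by gene the count was 9 of 41 (21.95%), against 3.0% of all 27025 genes. Whether the annotated starts are those used in 4T1 cells was not tested, so these shares do not count the genes with a TOP message. The letters CTTTC on the gene's strand within 20 bases of the start were in 13 of the 49 windows (26.5%), against 5.5% of all windows. In Rpl7a a pyrimidine stretch runs across the annotated start, but the base at the start is T and not C, so the gene is not in the first of these counts. The letters CTTCCG, or CGGAAG on the other strand, which hold the core bound by ETS-type factors, were in 30 of the 49 windows of 300 bases (61.2%), against 16.9% of all windows. They lie within the printed stretches of Rpl38, Rps6, Rps18 and Rpl11. These matches are descriptions of letters in a window. No sequence motif was tested against the array values. For the 9 genes with the pyrimidine start the median log2 difference of co-culture from regular medium was -0.04, with a range of -0.50 to 0.26. For the 29 measured genes with a window but no such start it was -0.14, with a range of -0.28 to 0.04, which lies inside the range of the first group.

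All 3 arrays were close in scale. Their 2%-trimmed mean signals were 497.8 for regular medium, 497.7 for conditioned medium and 498.0 for co-culture, and the share of signals not above the floor of 42.4 was between 38.0% and 41.4%. The epithelial marker Epcam read 5196.2, 5009.0 and 5542.5 in regular medium, conditioned medium and co-culture, and Krt8 and Krt18 also lay far above the floor on each array. Of 11 measured epithelial markers 10 were above 0 in co-culture against regular medium, with a median of 0.41. Krt14 alone was below 0, at -1.47. Of 20 MSC and fibroblast markers, 12 were measured in the comparison of co-culture with regular medium. Bgn, Postn and Sparc were at least 2-fold higher in co-culture, none was as much lower (5.81% of all genes were as much higher and 2.76% as much lower), and the median difference was 0.61 with 9 of the 12 above 0. The summed signal of the 20 was 59795.6, 62139.5 and 48986.5. Vim read 27902.2, 29070.4 and 16658.3 and S100a4 12755.3, 12810.2 and 7531.5, and these carried the lower sum in co-culture. The markers Col1a1, Dcn, Mgp, Pdgfrb and Thy1 were at or below the floor in co-culture. The part of carried-over MSC RNA in the differences below was not tested. In bulk RNA, fewer cells of a kind and less RNA per cell cannot be told apart.

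A probe set was measured in a comparison when its brighter signal reached 149.3. The filter was passed by 90 of the 101 probe sets and 43 of the 47 genes, 22 of the large and 21 of the small subunit. Where a gene had several probe sets, the one with the highest mean signal stood for it. The 4 genes that did not pass were Rpl39l, Rpl3l, Rps16 and Rps4l. Rpl39l, a copy of Rpl39 best known from the male germ line, read 26.9, 33.5 and 94.6 in regular medium, conditioned medium and co-culture. Rpl3l, the muscle form of Rpl3, read 9.1, 4.7 and 4.9. Rps4l, which RefSeq lists as a transcribed pseudogene, read 3.4, 4.3 and 6.4. All of these are at or near background except the co-culture value of Rpl39l, which is above the floor and still under the filter. Rps16, a 40S protein that every ribosome carries, read 1.2, 0.7 and 1.0 on its single probe set, so that probe set gave no usable reading of the gene.

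Contact with MSCs went with small differences in these messages. Co-culture was compared with regular medium to ask how 1 week beside MSCs bears on 4T1 expression. The 43 measured genes had a median log2 difference of -0.12, which is 1.09-fold lower in co-culture, with 37 below 0 and 6 above. After quantile normalization of the 3 arrays the median was -0.01 with 23 of the 43 below 0, so the common downward shift depends on how the arrays are scaled. With each array divided by its median over bright probe sets, the median was -0.17 with 41 of the 43 below 0. The middle 50% of the members lay between -0.20 and -0.03, and the whole range was -0.50 to 0.26. Over all 9393 genes measured in this comparison the median was 0.07, the middle 50% lay between -0.26 and 0.42, and 44.0% were below 0. No member was 2-fold higher, where 5.81% of all genes were, and none was 2-fold lower, where 2.76% were. None passed 1.5-fold in either direction, against 26.7% of all genes. The members thus lay in a narrower band than the genes of these arrays as a whole, which were not matched to them for signal.

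**Figure D1:**
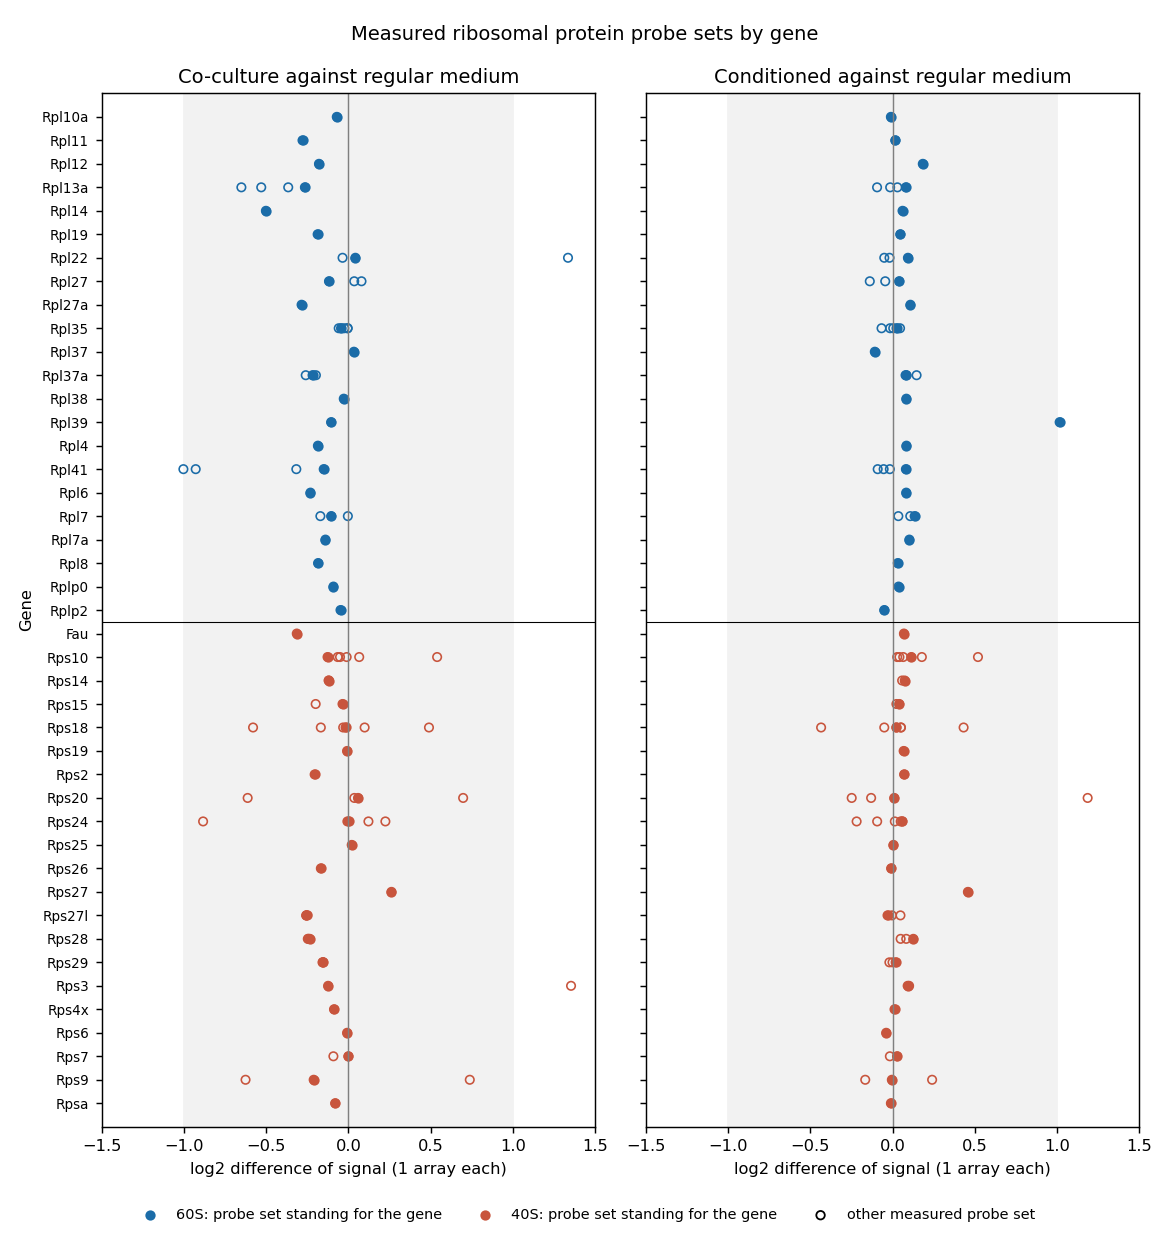
Log2 difference of signal from regular medium, in co-culture (left) and conditioned medium (right), for each measured probe set, with 1 gene per line, blue for 60S and red for 40S, filled points for the probe set that stands for the gene, open points for the others and shading within 2-fold. Most filled points on the left lie slightly below 0 (median -0.12, or -0.01 after quantile normalization), those on the right near 0 with Rpl39 at 1.02, and open points of Rpl22, Rps3 and Rpl41 lie far from the filled one on the left.

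The large subunit without the stalk had 20 measured genes, with a median of -0.16 and 18 below 0, and with a median of -0.06 and 13 below 0 after quantile normalization. Rpl14 had the lowest value of all members. It read 1329.1 with regular medium, 1386.0 with conditioned medium and 938.7 in co-culture, a log2 difference of -0.50 (1.42-fold lower in co-culture than in regular medium). Only the co-culture array stood apart for this gene, and quantile normalization left its difference at -0.55. Rpl27a read 435.8, 469.8 and 357.7 in the same order, a difference of -0.28. Rpl11, which with Rpl5 and 5S RNA can bind the p53 ligase Mdm2, read 20573.6, 20817.8 and 16954.1, also a difference of -0.28 (-0.11 after quantile normalization). For both genes the 2 arrays without contact lay close together and co-culture was the lowest.

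Rpl13a, a 60S protein that can leave the ribosome to silence inflammatory messages after interferon-gamma, gave lower readings in co-culture on each of its probe sets. Its 4 probe sets read 28702.3, 18260.4, 14405.0 and 10032.8 in regular medium. In conditioned medium they read 30351.6, 18075.1, 14700.8 and 9398.9, and in co-culture 23891.8, 14167.9, 9175.3 and 6948.2. All 4 were lower in co-culture, by log2 differences of -0.26, -0.37, -0.65 and -0.53. After quantile normalization they remained below 0, at -0.16, -0.27, -0.56 and -0.47. The -0.65 is 1.57-fold lower.

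Rpl6 read 28469.4, 30154.1 and 24259.0 in regular medium, conditioned medium and co-culture, a co-culture difference of -0.23. Rpl4, which lines the peptide exit tunnel, read 31071.0, 32941.2 and 27317.7, a difference of -0.19. Both were highest in conditioned medium and lowest in co-culture. Rpl12, which sits at the base of the stalk, read 2195.5, 2493.4 and 1939.0 with the same order of arrays and a difference of -0.18. Rpl7 read 29988.0, 32907.6 and 27888.9, a difference of -0.10. Rpl38, known from mice in which its loss alters the body plan, read 33303.5, 35293.4 and 32649.1, a difference of -0.03. Rpl37 was one of 2 genes of this group above 0, at 4484.2, 4160.7 and 4588.1 (0.03), and the other was Rpl22, described with its probe sets further on. Without a replicate, differences of this size cannot be told from array noise.

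The stalk recruits the translation factors to the large subunit. Rplp0, its base protein, read 27635.4, 28340.4 and 25940.1, a co-culture difference from regular medium of -0.09. Rplp2, which binds to Rplp0 as part of a dimer, read 30467.3, 29423.8 and 29462.7, a difference of -0.05. Neither stood apart from the other members, and quantile normalization placed their median at 0.07, on the other side of 0.

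The small subunit had 21 measured genes, with a median of -0.09 and 17 below 0, and with a median of 0.01 and 10 below 0 after quantile normalization. Fau, whose product is cut into the 40S protein Rps30 and a ubiquitin-like partner, was the lowest, at 22320.4, 23411.5 and 17953.1 (-0.31, and -0.17 after quantile normalization). Rps28 read 30041.8, 32785.6 and 25522.0, a difference of -0.24. In both, co-culture was the lowest array and conditioned medium the highest. Rps27l, a p53-responsive relative of Rps27, read 12902.7, 12631.0 and 10799.4 (-0.26). Its relative Rps27 went the other way, at 483.4, 663.9 and 579.4, and had the highest co-culture difference of all members at 0.26. The 2 paralogues therefore differed in sign in co-culture against regular medium. After quantile normalization Rps27 stayed at 0.23 and the standing probe set of Rps27l at -0.17. Against conditioned medium both were lower in co-culture, with Rps27 at -0.20 and Rps27l at -0.23. Rps27 rests on 1 probe set, at signals far below those of Rps27l.

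Rps6, the substrate from which the S6 kinases take their name, read 747.1, 727.3 and 742.8, a co-culture difference of -0.01. Rps19, a gene mutated in Diamond-Blackfan anaemia, read 20126.3, 21086.1 and 20010.9, also -0.01. These are among the members nearest to 0. Rpsa, the 40S protein also described as a laminin receptor, read 33932.4, 33693.9 and 32086.0 (-0.08), and Rps4x, the X-linked form of Rps4, read 29560.2, 29801.8 and 27815.1 (-0.09). Rps25 read 3969.6, 3984.2 and 4024.2 (0.02). A second probe set of Rps6 read 40.6, 17.9 and 30.2 and one of Rpsa 62.4, 32.7 and 82.6. Both were under the filter and were not used.

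Many of these signals lay high on the scale of the arrays, whose highest values were 42424.6, 43954.2 and 38152.2. A level of 10000 on all 3 arrays, chosen after the values were seen, was reached by 64 member probe sets of 35 genes. Their median co-culture difference was -0.10, with 84.4% below 0 and none past 1.5-fold. The 271 other named probe sets that reached 10000 had the same median of -0.10, with 66.0% below 0 and 6.64% past 1.5-fold. After quantile normalization the medians were 0.02 for the members and 0.02 for the others. The slightly lower co-culture reading of the family was thus shared by other probe sets of that signal. The 26 member probe sets under that level were more spread, with a median of -0.19, a range of -1.003 to 1.35 and 38.5% past 1.5-fold, against 30.8% of the 16754 others under it.

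**Figure D2:**
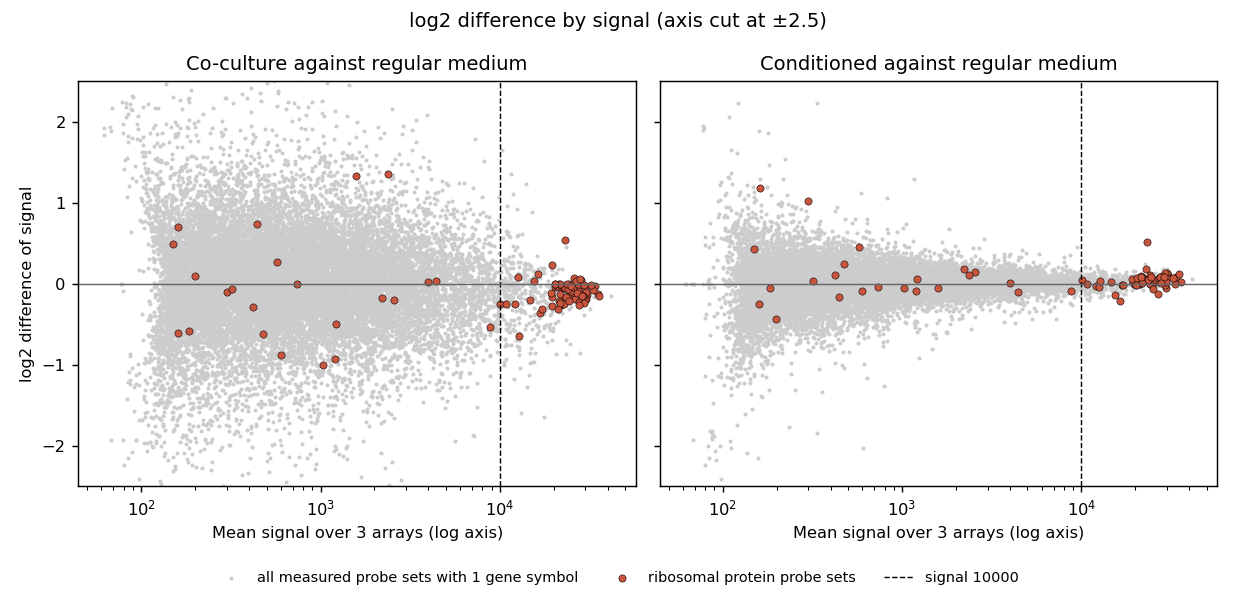
Log2 difference from regular medium against the mean signal over the 3 arrays (log axis), in co-culture (left) and conditioned medium (right), with ribosomal protein probe sets in red over all measured probe sets with a single symbol in grey and a dashed line at 10000. On the left the members at 10000 or more on all arrays have a median of -0.10 (0.02 after quantile normalization) like the other probe sets of that signal, and the members past 2-fold lie to the left of the line.

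Counted by probe set, 2 of the 90 measured were 2-fold higher in co-culture than in regular medium, against 5.37% of all measured probe sets, and 1 was 2-fold lower, against 5.49%. Past 1.5-fold there were 10, 4 higher and 6 lower, against 30.4% of all. These 3 past 2-fold belonged to Rpl22, Rps3 and Rpl41. In Rpl22 and Rps3 no other measured probe set of the gene passed 1.5-fold. In Rpl41 a further probe set lay close, at -0.93, and the others were at -0.32 and -0.15. The probe sets of a gene therefore had to be set side by side.

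At least 2 probe sets were measured for 19 genes, 66 probe sets in all. Signs were alike in 11 of the 19 genes. In 8 (42.1%) the probe sets lay more than 0.58 apart, which is a 1.5-fold disagreement. In 7 of these (36.8% of the 19) the signs were also opposite, and after quantile normalization this held for 5 genes. Among 4542 other genes with several measured probe sets 44.1% lay that far apart, and 28.8% did so with opposite signs. A spread of that size was thus about as common in the rest of the array. The median spread between probe sets of a member was 0.20, against 0.50 in the other genes. With the level of 10000 applied, 16 genes and 45 probe sets remained, and 1 gene lay more than 0.58 apart (6.25%). Of 56 other genes of that level 0.0% did. The median spread was 0.10 in the members and 0.14 in those others.

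The closest readings came from Rps14, Rps29, Rps27l and Rps28. The 2 probe sets of Rps14, which lines the mRNA path near the exit, both gave a co-culture difference of -0.12 from regular medium. The 3 probe sets of Rps29, a small zinc-binding protein of the 40S head, gave -0.15 to -0.16, and the 3 of Rps27l gave -0.25 to -0.26. The 3 of Rps28 gave -0.24 to -0.25. Rpl35, at the exit of the peptide tunnel, had 5 measured probe sets over a spread of only 0.05. For these genes the probe sets repeated the array's value closely, although they share the same RNA and are not replicates of a condition.

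Rpl22, a 60S protein also known from T-cell development, had 3 measured probe sets. 1453118_s_at read 27377.9, 29206.8 and 28189.0 in regular medium, conditioned medium and co-culture, a co-culture difference of 0.04. 1416603_at read 20549.8, 20288.0 and 20045.4, a difference of -0.04. 1448398_s_at read 1058.9, 1022.5 and 2669.3, a difference of 1.33 (2.52-fold higher). After quantile normalization the 3 differences were all above 0, at 0.19, 0.11 and 1.31 in the same order. Only the last probe set was past 2-fold, and which transcript it detects was not tested. Its paralogue Rpl22l1, outside the rule, read 10234.3, 11558.6 and 15403.3 (0.59).

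Rps3, which sits where the message enters the 40S subunit, showed the same division. 1435151_a_at read 21686.5, 23107.6 and 19904.4, a difference of -0.12 in co-culture. 1455600_at read 1539.6, 1650.5 and 3931.1, a difference of 1.35 (2.55-fold higher). Another probe set, 1447563_at, read 35.5, 12.3 and 6.1 and did not pass the filter. The 2 measured probe sets of Rps3 thus differed in sign as deposited. After quantile normalization both were above 0, at 0.01 and 1.36.

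Rpl41, which encodes a very short basic peptide of the large subunit, was below 0 on all 4 probe sets but by unequal amounts. 1433530_at read 1253.6, 1207.3 and 625.5, a co-culture difference of -1.003 (2.00-fold lower than regular medium). 1454639_x_at read 1459.7, 1370.9 and 767.1 (-0.93). 1422623_x_at read 18375.0, 18164.6 and 14751.3 (-0.32), and 1455578_x_at read 29157.0, 30841.9 and 26269.8 (-0.15). The differences of this gene thus ran from -1.003 to -0.15, and after quantile normalization from -1.04 to -0.03.

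In Rps9, a 40S protein that helps keep decoding accurate, 1433689_s_at read 22431.5, 22361.3 and 19374.1 (-0.21 in co-culture). 1426958_at read 505.2, 596.7 and 327.5 (-0.63), and 1434624_x_at read 374.9, 334.1 and 624.9 (0.74). The last 2 went in opposite directions. In Rps24, whose 3′ end is alternatively spliced, 1455195_at read 725.1, 679.5 and 393.1 (-0.88). The other 4 measured probe sets of Rps24 lay between -0.01 and 0.22. One probe set of 5 thus carried the low value.

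Rps10, another gene mutated in Diamond-Blackfan anaemia, was the only member to disagree by more than 0.58 at signals of 10000 and above. 1439374_x_at read 17924.3, 25681.9 and 26038.0 in regular medium, conditioned medium and co-culture, a co-culture difference of 0.54. The other 4 probe sets at that level lay between -0.13 and 0.07. The reading that stood apart was that of the regular-medium array, since the other 2 arrays differed by 0.02. In Rps18, a 40S head protein at a bridge to the large subunit, 3 probe sets lay between -0.17 and -0.02. The other 3 read 209.4, 119.9 and 211.6 in regular medium, near the filter, with co-culture differences of -0.58, 0.49 and 0.10.

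In Rps20, also part of the 40S head, 1456436_x_at read 27528.4, 27721.6 and 28661.5 (0.06 in co-culture). 1421935_at read 192.2, 161.8 and 125.7 (-0.61), and 1450417_a_at read 98.9, 224.9 and 160.3 (0.70). The latter 2 probe sets crossed the filter on some arrays only.

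**Figure D3:**
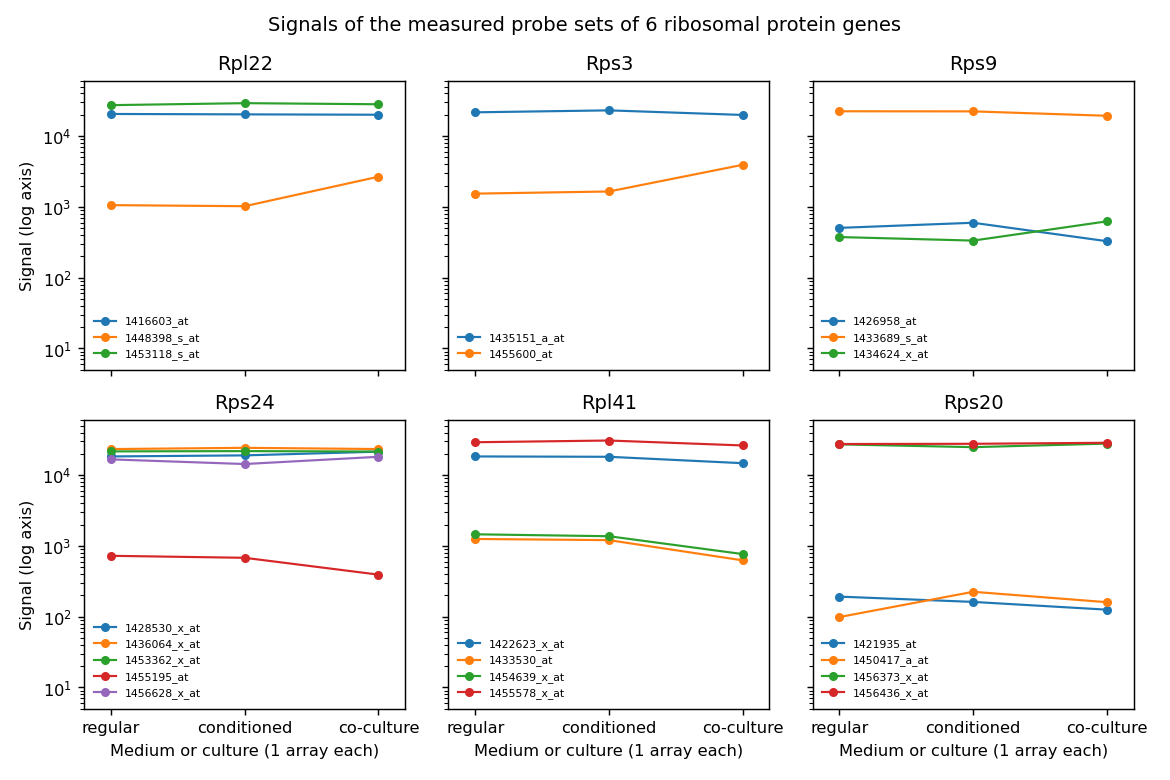
Signal (log axis) in regular medium, conditioned medium and co-culture for the measured probe sets of 6 genes whose probe sets disagreed, 1 line per probe set. The high co-culture readings of Rpl22 (2669.3) and Rps3 (3931.1) each belong to 1 probe set, while the other lines of these genes are nearly level.

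The array from conditioned medium was set against regular medium to ask what MSC secretions do without contact. The differences were smaller again. The 43 genes had a median log2 difference of 0.06 with 35 above 0 and 8 below, and of 0.01 with 19 below 0 after quantile normalization, against a median of 0.01 over 9152 genes. The 20 large-subunit genes had a median of 0.08 (0.03 after quantile normalization), the 2 stalk genes -0.01 (-0.06) and the 21 small-subunit genes 0.03 (near 0, at -0.004). Rpl39 alone was 2-fold higher, where 0.109% of all genes were, and none was 2-fold lower, where 0.306% were. It was also the only member past 1.5-fold, against 2.22% of all genes. Under quantile normalization the calls over all genes were 15 higher and 25 lower, in place of 10 and 28.

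Rpl39, a small protein of the peptide exit tunnel, read 227.6 for regular medium, 460.0 for conditioned medium and 211.6 for co-culture. The conditioned-medium value was 2.02-fold that of regular medium (log2 difference 1.02), and the other 2 arrays differed by -0.11. It rests on 1 probe set and 1 array. Rps27 read 483.4, 663.9 and 579.4, a conditioned-medium difference of 0.46, the next highest. Rpl37 had the lowest, at -0.11.

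By probe set, 2 of the 90 were 2-fold higher in conditioned medium, against 0.188% of all measured probe sets, and none was 2-fold lower, against 0.388%. They were that of Rpl39 and 1450417_a_at of Rps20, at 1.19, and no other member probe set passed 1.5-fold, against 3.0% of all. The Rps20 value depends on the floor, because the regular-medium signal of 98.9 lay below the filter, and with a higher floor it was 0.59. The Rps10 probe set 1439374_x_at was at 0.52. Of the 19 genes with several measured probe sets, 7 had like signs, and Rps18 and Rps20 lay more than 0.58 apart with opposite signs (10.53%, against 11.69% of the other genes). The median spread was 0.11, against 0.23 in the other genes.

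Co-culture was set against conditioned medium to compare contact with secretions. It shares both arrays with the comparisons above and adds no array. The median of the 43 genes was -0.20 with 38 below 0, and -0.02 with 25 below 0 after quantile normalization. Over all 9350 genes measured in this comparison the median was 0.07, with 44.0% below 0. At 10000 and above on all 3 arrays the median was -0.15 for member probe sets and -0.10 for the other named ones. After quantile normalization these 2 medians were 0.03 and 0.01. The medians were -0.24 for the large subunit, -0.06 for the stalk and -0.16 for the small subunit, and -0.06, 0.13 and 0.02 after quantile normalization, with the stalk and the small subunit on the other side of 0. No member gene was 2-fold higher, where 5.83% of all genes were. Rpl39 alone was 2-fold lower, at -1.12, where 2.6% of all genes were, and it alone passed 1.5-fold, against 26.8%. Rpl14 followed at -0.56, then Rpl27a at -0.39 and Fau at -0.38. Rpl37 was the highest at 0.14. By probe set, 2 of the 90 were 2-fold higher, against 5.45% of all, 1 was 2-fold lower, against 5.48%, and 9 passed 1.5-fold, against 30.6%. Of the 19 genes with several measured probe sets, 7 had spreads over 0.58 (36.8%, against 43.6% of the other genes).

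Other TOP messages code for translation factors, nucleolar proteins and RNA-binding proteins. Of these, 20 were measured, with a median co-culture difference from regular medium of -0.17 and 18 below 0, and of -0.11 with 14 below 0 after quantile normalization. Hnrnpa1, an RNA-binding splicing regulator, was the only one past 2-fold in either direction (2.76% of all genes were lower by that much and 5.81% higher), at 4433.1, 4672.1 and 1811.2 in regular medium, conditioned medium and co-culture (-1.29, 2.45-fold lower). Nap1l1, a histone chaperone, read 17986.9, 17017.0 and 9094.8 (-0.98). The elongation factors Eef1a1 and Eef2 were at -0.16 and -0.10, and Eif3f, a subunit of an initiation factor, was at 0.23. In conditioned medium the median of this list was 0.05 and none passed 2-fold, where 0.109% of all genes were higher and 0.306% lower.

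Several genes carry names like those of the family and have other roles or are paralogues. Of 6 measured, 0 were 2-fold higher in co-culture (5.81% of all genes) and 1 was 2-fold lower (2.76% of all genes), and the median was 0.38. Rsl1d1, a nucleolar protein, read 6354.3, 6604.4 and 2716.2 (-1.23). Rrbp1, a ribosome-binding protein of the endoplasmic reticulum, was at 0.78 and Rpl7l1 at 0.35.

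The genes of the mTORC1, Larp1 and S6 kinase pathway gave 18 measured, with 0 higher and 1 lower by 2-fold in co-culture, where 5.81% and 2.76% of all genes were, and a median of 0.11. Deptor, an inhibitor of the mTOR kinase, read 380.9, 367.1 and 179.9 (-1.08). Tsc1 and Tsc2, which hold mTORC1 in check, were at 0.81 and 0.75, and Eif4ebp1, a translation repressor that mTORC1 inactivates, was at 0.79. Mtor itself was at 0.05 and Larp1 at -0.13. These are RNA levels and say nothing of kinase activity.

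Carriers of ribosomal proteins, the importins, exportins and dedicated chaperones, gave 16 measured. Their median was -0.11 with 12 below 0 (-0.12 after quantile normalization). None was past 2-fold, where 5.81% of all genes were higher by that much and 2.76% lower. Nap1l1 was the lowest at -0.98, and Ltv1, a factor of 40S maturation, was at -0.63. Nob1, the nuclease that finishes 18S rRNA, was at 0.46 and Ipo7, an importin, at -0.17. Nap1l1 and Ipo7 are also counted among the other TOP messages above. The genes that link free ribosomal proteins to p53 gave 6 measured and a median of 0.09. None was past 2-fold, against the same 5.81% and 2.76% of all genes. Myc, a driver of ribosome synthesis, read 6041.9, 6113.5 and 9152.0 (0.60). Mdm2, the p53 ligase that Rpl11 binds, was at 0.08, and the p53 target Cdkn1a was at 0.11. The 2 below 0 were Npm1, also counted among the other TOP messages, at -0.38, and Ncl at -0.32.

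Mitochondrial ribosomal proteins, which build a separate ribosome in the organelle, gave 76 measured genes. Their median co-culture difference was -0.21 with 56 below 0, and -0.23 with 54 below 0 after quantile normalization. Mrpl18 read 4118.8, 3869.8 and 1783.5 (-1.21) and Mrpl42 read 6878.0, 6394.1 and 3177.2 (-1.11), and these were the 2 past 2-fold, both lower, where 2.76% of all genes were. Their middle 50% ran from -0.47 to 0.03, a wider band than that of the cytosolic members. In conditioned medium their median was 0.02.

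**Figure D4:**
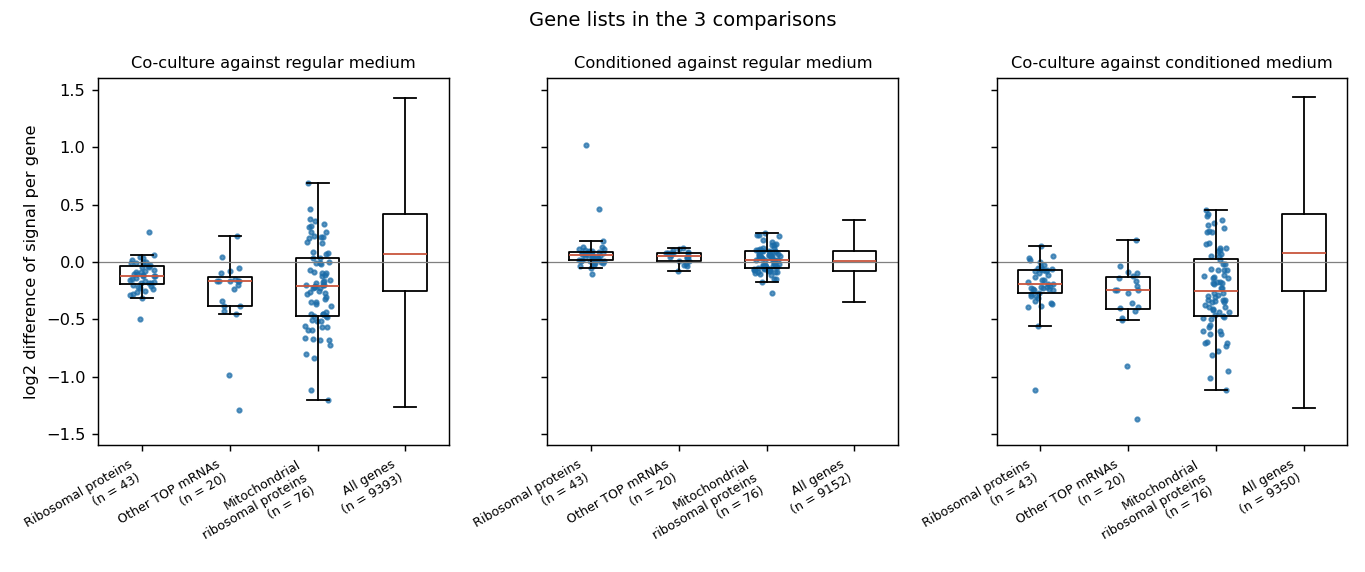
Log2 differences of the measured genes of 3 lists and of all genes in the 3 comparisons, with 1 point per gene for the lists, boxes from the lower to the upper quartile, the median as a red line and whiskers to the last value within 1.5 box lengths. In co-culture against regular medium, cytosolic ribosomal proteins have a median of -0.12 (-0.01 after quantile normalization), mitochondrial ones -0.21 (-0.23) and all genes 0.07.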

How the data were processed

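The authors deposited 1 linear intensity per probe set and array, per the submitters' processing notes the output of MAS5. Neither version nor target level was given in the sources used here. This method merges probe readings into a single signal and rescales every array, so a difference can move with the scaling. Values were used as deposited. Signals under the pooled 40th percentile (42.4) were set to it, log2 ratios were taken, and a probe set counted as measured where its brighter signal reached the pooled 60th percentile (149.3). A gene was represented by its probe set of highest mean signal. Probe sets ending in _x_at or _s_at can bind related messages. Sizes were read at 2-fold and 1.5-fold, since 1 array per condition allows no test and precision is limited by how few arrays there are. Genes were named for the largest differences in each direction, for a 1.5-fold difference, for probe sets in disagreement, for the number of probe sets, or as stalk, paralogue and well-known members. Members and lists were chosen with earlier results of these data known. The marker lists of leukocytes (3 measured, summed signals 687.8, 712.7 and 812.3 in regular medium, conditioned medium and co-culture) and endothelium (1 measured, 334.4, 285.5 and 332.3) were also read. Of the epithelial list 11 were measured, with a median co-culture difference of 0.41. In that list 0 were 2-fold higher (5.81% of all genes were) and 1, Krt14, was 2-fold lower (2.76% of all genes were). Promoter windows came from RefSeq (GRCm38.p6). Scripts were tested on simulated data. Python 3.11.15, NumPy 2.4.6, pandas 2.3.3 and Matplotlib 3.10.9 were used. Other scalings, floors, filters and probe set choices were tried.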

Additional observations from a re-analysis of the deposited data

How the results depend on the processing

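The alternatives covered scaling, floor, filter, probe set choice, size rule and symbols, and the medians of the family changed sign under none of them. Quantile normalization placed the median difference at -0.01 for co-culture against regular medium (from -0.12), at 0.0075 for conditioned against regular medium and at -0.024 for co-culture against conditioned medium. Without the brightness filter, 1 gene (Rpl39l) was 2-fold higher in co-culture than in regular medium and 1 than in conditioned medium. Without _s_at and _x_at probe sets, 1 gene (Rpl41) was 2-fold lower in co-culture than in regular medium, and 2 (Rpl39 and Rps20) were higher in conditioned medium. With the filter at the 80th percentile, the count higher in conditioned medium was 0 and the count lower in co-culture than in conditioned medium was 0, and both were 0 under a 3-fold rule. By probe set, the count higher in conditioned medium was 1 with the floor at the 60th percentile and 0 with the 80th percentile filter, and the count lower in co-culture than in conditioned medium was 0 with that filter. Genes with probe sets of opposite sign and more than 0.58 apart numbered 4, 0 and 3 with the 80th percentile filter for co-culture against regular medium, conditioned against regular medium and co-culture against conditioned medium. Such genes numbered 3, 1 and 2 without _s_at and _x_at probe sets, and 1 for conditioned against regular medium with the floor at the 60th percentile. With the 80th percentile filter 18 genes had several measured probe sets, and without _s_at and _x_at probe sets 7 had, in place of 19. The cause of the changes in these counts was not tested. The filter, floor and scaling choices for probe sets were added after the data were seen.

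No paired analysis was possible because each condition had 1 array and the labels carry no replicate numbers, and leaving out an array would leave a condition empty. Low signals limit Rps20 and Rps18, and Rpl39 and Rps27 each rest on 1 probe set.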

Other observations

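The 110 probe sets that name a ribosomal protein gene together with other genes hold members that have no probe set of their own. Of these, 102 were measured. Their median log2 difference of co-culture from regular medium was -0.12, with 84 below 0, 0 at least 2-fold higher and 4 at least 2-fold lower, where 5.37% and 5.49% of all measured probe sets with a single symbol were. For conditioned against regular medium the median was 0.02, and for co-culture against conditioned medium it was -0.14. At 10000 and above on all 3 arrays, 77 of them had medians of -0.11, 0.04 and -0.15 in the same order. Each reading mixes the messages that its probes match.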
